A study of Mus musculus with 12 samples.

Results

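The desaturase genes were examined in adipocytes carrying wild-type or mutant PPARγ. They comprised the 4 stearoyl-CoA desaturases Scd1, Scd2, Scd3 and Scd4 and the 4 fatty acid desaturases Fads1, Fads2, Fads3 and Fads6, which were taken by name from the 55573 genes of the count table. All 8 were among the 15117 genes with enough counts to be tested. The cells came from the stromal vascular fraction of inguinal white adipose tissue of C57BL/6 mice and were differentiated in culture, so the libraries describe cultured cells. WT mice carried the normal receptor, TA mice were homozygous for T166A, in which alanine takes the place of the threonine and cannot be phosphorylated, and TD mice were homozygous for T166D, in which aspartate is used as a mimic of the phosphorylated residue. The mutations were made in the germ line with Cas9, so every cell type of a culture carried them. All 3 genotypes received the same induction medium for 4 days, with 850 nM insulin, 1 nM triiodothyronine, 0.5 mM IBMX, 125 nM indomethacin and dexamethasone, then medium with insulin and triiodothyronine, and RNA was taken on day 8. There were 4 libraries per genotype, which held 18823619 to 20324286 (WT), 16950175 to 18182526 (TA) and 16553324 to 18357864 (TD) counts. The age of the mice that gave the cells, and whether the libraries of a genotype came from separate animals, are not given in the sources used here, so the p-values measure the spread between these libraries, which may be technical.

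A desaturase removes hydrogen from a saturated stretch of a fatty acyl chain and leaves an unsaturated bond. Stearoyl-CoA desaturases act on palmitoyl-CoA and stearoyl-CoA and give palmitoleate and oleate, the main monounsaturated chains of stored fat. Scd1 is the main form of adipose tissue and a long known marker of adipocyte differentiation, Scd2 is also abundant in brain, Scd3 is best known from skin and the Harderian gland, and Scd4 from heart. Fads2 and Fads1 carry out, in turn, the early and the late desaturation of the essential fatty acids on their way to arachidonate, eicosapentaenoate and docosahexaenoate. Fads3 acts on the sphingoid base of ceramides, and the substrate of Fads6 is not well defined. The enzymes take electrons from cytochrome b5, which is reduced by cytochrome b5 reductase. Transcription of the family is classically driven by SREBP-1c, LXR and PPAR receptors.

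The Scd genes lay together on chromosome 19 of GRCm38, in the order Scd3 (ENSMUSG00000025202, chr19:44203269-44244016, plus strand), Scd2 (ENSMUSG00000025203, chr19:44293674-44306864, plus strand), Scd4 (ENSMUSG00000050195, chr19:44333092-44346743, plus strand) and Scd1 (ENSMUSG00000037071, chr19:44394455-44407879, minus strand), with gaps of 49.66, 26.23 and 47.71 kb. Elsewhere on the chromosome stood Fads3 (ENSMUSG00000024664, chr19:10041569-10060110, plus strand), Fads2 (ENSMUSG00000024665, chr19:10062765-10101746, minus strand) and Fads1 (ENSMUSG00000010663, chr19:10182888-10196877, plus strand), and Fads6 (ENSMUSG00000044788) lay apart at chr11:115279622-115297663 on the minus strand. Fads3 and Fads2 met with their 3′ ends, 2.654 kb apart, and 81.14 kb separated Fads2 from Fads1. No member shared exon bases with another gene, except that a 61-base microRNA gene without counts lay within Scd2.

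The 4 Scd coding sequences are close copies, which bears on how reads could be assigned. Scd1 was 91.46% identical to Scd3, 90.33% to Scd2 and 84.61% to Scd4 over the aligned bases. The longest coding stretch with no difference from Scd1 had 185 bases in Scd3, 147 in Scd2 and 116 in Scd4. The last 90 coding bases before the stop codon, all within exon 6 of 6, are printed here because they display this likeness directly. Capitals mark the bases that differ from Scd1.
Scd1, chr19:44397922-44398011, minus strand: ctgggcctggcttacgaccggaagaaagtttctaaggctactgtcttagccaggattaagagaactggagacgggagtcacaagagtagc
Scd2, chr19:44303108-44303197, plus strand: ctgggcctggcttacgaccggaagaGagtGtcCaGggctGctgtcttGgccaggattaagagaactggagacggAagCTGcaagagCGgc
Scd3, chr19:44241767-44241856, plus strand: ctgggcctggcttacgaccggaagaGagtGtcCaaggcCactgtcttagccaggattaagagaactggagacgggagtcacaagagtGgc
Scd4, chr19:44344807-44344896, plus strand: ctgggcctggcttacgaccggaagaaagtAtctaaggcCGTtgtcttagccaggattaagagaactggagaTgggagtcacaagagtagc
In this window Scd2 differed from Scd1 at 12 bases, while Scd3 and Scd4 each differed at 5. Over whole transcripts, 3.974% to 6.573% of the 50-base words of an Scd gene also occurred in another gene. The Fads genes were easier to tell apart, with coding identities from 58.95% to 71.06% and at most 1.692% of words shared.

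Scd1 was by far the most abundant member. In WT its reads made up 5.91% ± 0.24 (SD, n = 4) of all counts, compared with 4.41% ± 0.53 in TA and 4.01% ± 0.23 in TD. Counts per 1000000 counts of the normalized library size (CPM) were divided by exon length to order the genes by level. In WT, Scd1 stood at 12271 CPM per kb, Scd2 at 954, Fads1 at 54.9, Fads3 at 51.0, Fads2 at 41.0, Scd3 at 3.84, Fads6 at 2.24 and Scd4 at 0.116. Fads1 (50.9 to 57.6 CPM per kb) and Fads3 (47.6 to 53.0) overlapped between WT libraries, whereas every other pair of neighbours in this order was separated. In TA the ranges of Fads1, Fads2 and Fads3 overlapped, as did those of Scd3 and Fads6. In TD the order of the lower genes was different, with Fads6 (3.14 to 3.65 CPM per kb) above Scd3 (0.759 to 1.20). Scd4 was near the limit of detection, with 7 to 10 counts per WT library, 2 to 16 per TA library and 9 to 13 per TD library, and a change in it was not detectable at this depth.

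**Figure D1:**
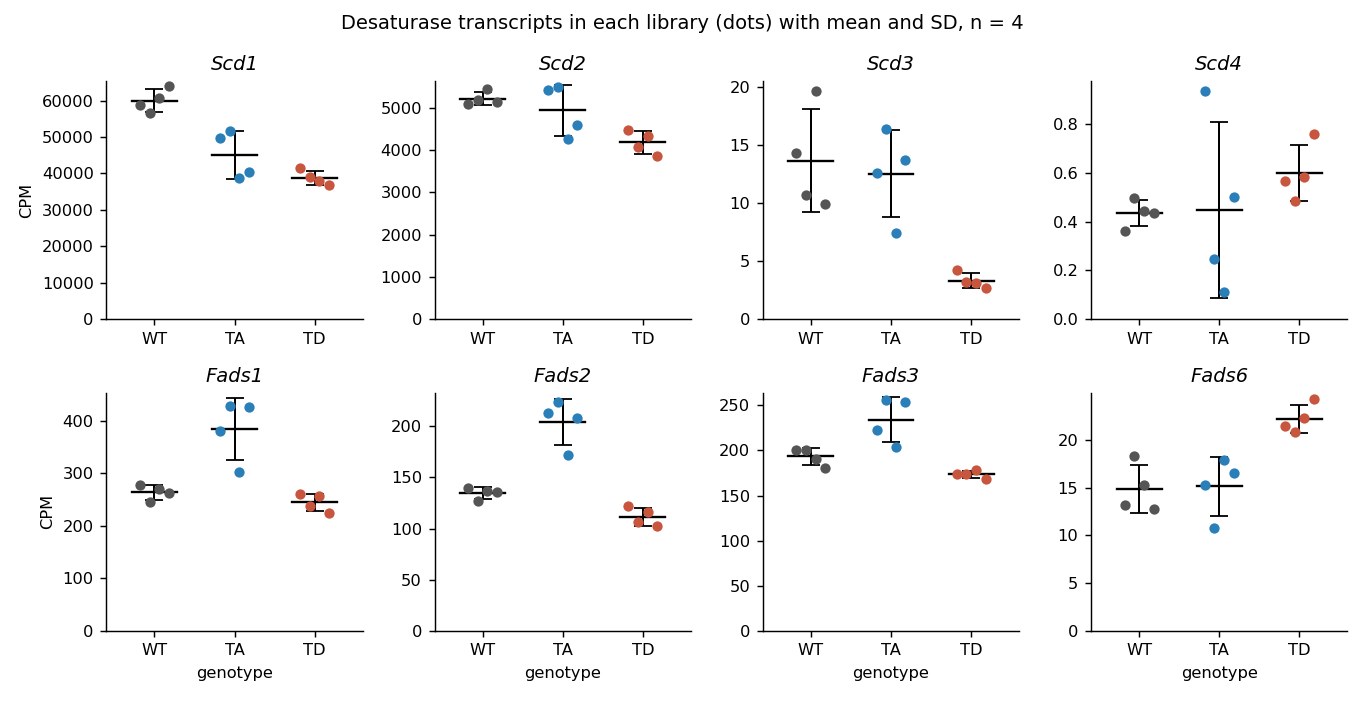
CPM of each desaturase in the 4 WT, 4 TA and 4 TD libraries, with dots for libraries, a line for the mean and bars for the SD. Scd1 lies between 56511 and 64019 CPM in WT and between 36702 and 41412 CPM in TD, and Fads2 reached 172 to 224 CPM in TA against 127 to 140 in WT.

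To ask how the phosphomimetic receptor differed from the wild type, TD was compared with WT. Scd1, Scd2, Scd3 and Fads2 fell and Fads6 rose in TD, whereas Scd4, Fads1 and Fads3 did not pass the test. Thus 5 of 8 desaturases were called at an adjusted p under 0.05 by edgeR's quasi-likelihood test, against 29.2% of all genes tested, with 4 of 8 called lower, against 14.2%, and 1 called higher, against 15.1%. Libraries of TD and WT did not overlap for 6 of the 8, compared with 32.2% of all genes. The summed level of 12 adipocyte markers was lower in TD as well (16587 to 18981 CPM, against 23910 to 27164 in WT), and in bulk RNA fewer adipocytes and less RNA per adipocyte cannot be told apart.

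Scd1 was measured at 58932, 56511, 60665 and 64019 CPM in WT and at 41412, 38942, 38051 and 36702 CPM in TD. Every TD library was below every WT library, and Scd1 fell by 0.63 on the log2 scale (SE 0.12, adjusted p = 0.000953). Scd2 was measured at 5099, 5193, 5441 and 5129 CPM in WT and at 4468, 4060, 4333 and 3853 CPM in TD. Again the genotypes were separated, with a log2 fold change of -0.32 (SE 0.096, adjusted p = 0.0200).

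Scd3 changed most. The WT libraries held 275, 215, 397 and 182 counts of it, the TA libraries 216, 266, 134 and 247, and the TD libraries 75, 60, 58 and 46. The highest TD library was below the lowest library of either other genotype. In CPM, Scd3 averaged 13.6 ± 4.44 (SD, n = 4) in WT and 3.32 ± 0.666 in TD, a log2 fold change of -2.04 (SE 0.25, adjusted p = 8.93e-05). Since Scd1 reads were far more frequent, Scd3 counts were also set against Scd1 counts of the same library, a measure chosen after the values were seen and not tested. Per 1000000 Scd1 counts, WT libraries held 156 to 324 Scd3 counts, TA libraries 193 to 339 and TD libraries 73.5 to 103. The ratio was lowest in the TD libraries. How many of the Scd3 counts were misassigned Scd1 reads was not tested.

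Of the Fads genes, Fads2, which starts the pathway to polyunsaturated chains, was measured at 140, 127, 137 and 136 CPM in WT and at 122, 106, 116 and 103 CPM in TD. The TD libraries were lower without overlap, and the log2 fold change was -0.28 (SE 0.084, adjusted p = 0.0204). Fads1 in WT had 277, 245, 271 and 263 CPM and in TD 260, 237, 257 and 225 CPM, and these overlapped (log2 fold change -0.11, SE 0.098, adjusted p = 0.434). Fads3 had 201, 200, 191 and 181 CPM in WT and 174, 174, 178 and 168 CPM in TD. Although these did not overlap, the difference of -0.16 on the log2 scale missed the threshold (SE 0.077, adjusted p = 0.143).

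Fads6 moved the other way. It was measured at 13.2, 18.3, 15.3 and 12.8 CPM in WT, at 15.3, 10.8, 17.9 and 16.6 CPM in TA and at 21.5, 20.9, 22.3 and 24.3 CPM in TD. Every TD library was above every WT and TA library, and the log2 fold change of TD over WT was 0.58 (SE 0.14, adjusted p = 0.00685). The calls of Scd1, Scd3 and Fads6 were kept under each scaling, filter and test tried and with any single library left out. Without TD replicate 2 or without TD replicate 4, only 3 desaturases were called, since Scd2 (adjusted p 0.0553 and 0.0702) and Fads2 (0.0617 and 0.0741) were lost, with adjusted p over all settings from 0.00104 to 0.0702 for Scd2 and from 0.00740 to 0.0741 for Fads2.

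**Figure D2:**
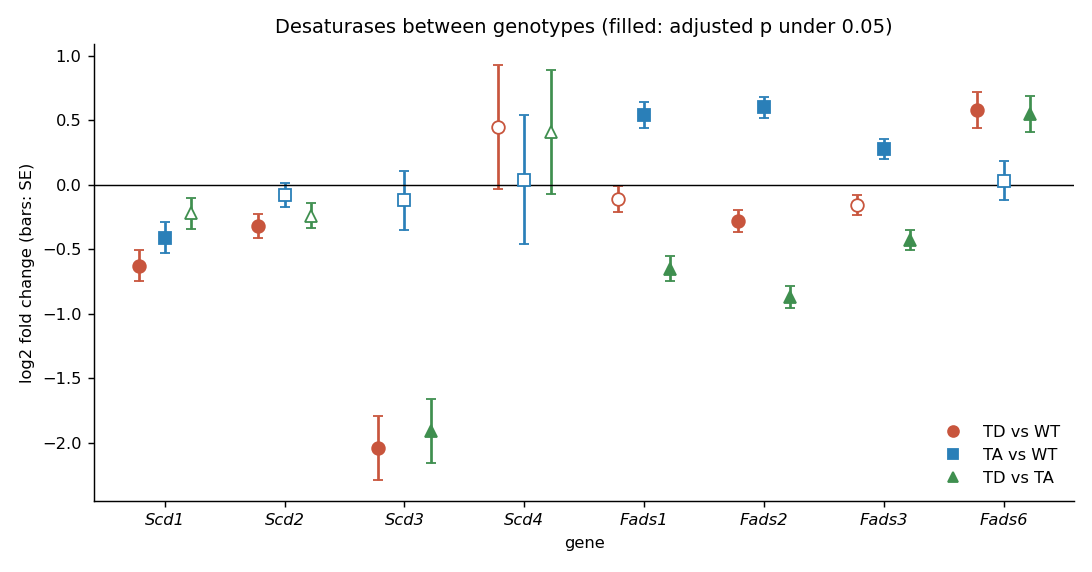
Log2 fold change (y axis, bars give the SE) of each desaturase (x axis) in TD over WT (circles), TA over WT (squares) and TD over TA (triangles), with filled symbols for an adjusted p under 0.05. Scd3 is at -2.04 and -1.91 in the comparisons with TD, and Fads1, Fads2 and Fads3 lie above 0 in TA over WT and below 0 in TD over TA.

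To ask how the receptor that cannot be phosphorylated at this site differed from the wild type, TA was compared with WT. Fads1, Fads2 and Fads3 rose in TA and Scd1 fell, while Scd2, Scd3, Scd4 and Fads6 did not pass the test. The 4 desaturases called compare with 11.1% of all genes tested, the 3 called higher with 6.72% and the 1 called lower with 4.41%. Libraries did not overlap for these same 4 genes, against 13.6% of all genes.

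Fads2 was measured at 213, 224, 172 and 208 CPM in TA, each above the highest WT library. It rose 1.51-fold (log2 fold change 0.60, SE 0.083, adjusted p = 0.000195). Fads1, which acts after Fads2, had 380, 428, 303 and 426 CPM in TA, also without overlap, and rose 1.46-fold (log2 fold change 0.54, SE 0.098, adjusted p = 0.00181). Fads3 had 223, 256, 204 and 254 CPM in TA and rose less, by 0.28 on the log2 scale (SE 0.077, adjusted p = 0.0272). TA replicate 3 was the lowest TA library for Scd1, Scd2, Scd3, Fads1, Fads2 and Fads3, and it was also the TA library with the lowest summed level of adipocyte markers (22325 CPM) and the highest of fibroblast and preadipocyte markers (20585 CPM).

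Scd1 had 49821, 51630, 38646 and 40446 CPM in TA. All 4 libraries were below WT but spread more widely, and the fall of 0.41 on the log2 scale (SE 0.12) had an adjusted p of 0.0306. Scd2 had 5411, 5492, 4260 and 4591 CPM in TA, on both sides of the WT values (log2 fold change -0.08, SE 0.096, adjusted p = 0.675). Scd3 in TA (12.5 CPM ± 3.73, SD, n = 4) and Fads6 (15.1 ± 3.11) also overlapped with WT, with log2 fold changes of -0.12 (SE 0.23, adjusted p = 0.795) and 0.03 (SE 0.15, adjusted p = 0.940). Scd3 turned to 0.10 without WT replicate 3, and Fads6 turned to -0.06 without TA replicate 3, so their directions rested on single libraries. The calls of Fads1 and Fads2 were kept under each scaling, filter and test tried and with any single library left out. Those of Scd1 and Fads3 were not, with adjusted p up to 0.0876 and 0.0857 and down to 0.000274 and 0.00661. Only Fads1 and Fads2 were called without WT replicate 3, without WT replicate 4, without TA replicate 4, or with the TD libraries left out of the fit.

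The mutants were then compared with each other. Fads1, Fads2, Fads3 and Scd3 were lower and Fads6 was higher in TD than in TA, whereas Scd1, Scd2 and Scd4 did not pass the test. These 5 of 8 compare with 16.7% of all genes tested, the 4 called lower with 9.37%, the 1 called higher with 7.33%, and the 5 genes without overlap with 19.9%. Marker levels moved with these calls, with 9 of 12 adipocyte markers lower and 1 higher (median -0.52) and 4 of 9 fibroblast and preadipocyte markers higher (0.41), and their part in the result was not tested. Set beside the adipocyte markers of the same library, Fads1 overlapped between the mutants, and the means of Fads3, Scd1 and Scd2 were higher in TD. Fads2 was 1.83-fold higher in TA (log2 fold change of TD over TA -0.87, SE 0.084, adjusted p = 6.52e-06) and Fads1 1.57-fold higher (-0.65, SE 0.098, adjusted p = 0.000372). Fads3 differed less (-0.43, SE 0.077, adjusted p = 0.00136). Scd3 was 3.77-fold higher in TA (-1.91, SE 0.25, adjusted p = 0.000149), and Fads6 was 1.47-fold higher in TD (0.55, SE 0.14, adjusted p = 0.0159). For Scd1 the libraries overlapped, and the difference of -0.22 (SE 0.12) had an adjusted p of 0.213. Scd2 differed by -0.24 (SE 0.096, adjusted p = 0.0972), and it passed the threshold without TA replicate 3 (-0.31, adjusted p = 0.0216) and in DESeq2 (adjusted p = 0.0255), over a range from 0.0216 to 0.253. The comparisons share libraries and are not independent of each other.

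Ratios of counts within a library do not depend on how libraries are scaled, and 3 of them were compared between genotypes by exact two-sided permutation tests of log2 ratios, 9 tests in all. With 4 against 4 libraries the smallest p is 0.0286. Scd2 and Scd1 make the same product, and their balance shifted in both mutants. Per 100 Scd1 counts, Scd2 had 8.71 ± 0.512 (SD, n = 4) counts in WT, compared with 11.0 ± 0.300 in TA and 10.8 ± 0.438 in TD. Each mutant was separated from WT (exact permutation p = 0.0286, adjusted 0.0429, for both, with log2 differences of 0.33 in TA and 0.31 in TD), but the mutants overlapped (log2 difference -0.03, exact permutation p = 0.457).

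Fads2 and Fads1 act in sequence on the same chains. Fads2 counts per 100 Fads1 counts were 51.2 ± 0.835 in WT, 53.5 ± 3.74 in TA and 45.5 ± 0.934 in TD. TD was below both WT (log2 difference -0.17) and TA (-0.23) without overlap, each at an exact permutation p of 0.0286 (adjusted 0.0429), whereas TA and WT overlapped (0.06, exact permutation p = 0.286). The mean fall of Fads2 in TD was thus larger than that of Fads1 within the same libraries.

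Scd1 was also set against Fasn, the fatty acid synthase that makes the palmitate used by Scd1. In WT there were 6.39 ± 0.865 Scd1 counts per Fasn count, compared with 3.00 ± 0.210 in TA and 4.86 ± 0.596 in TD. The ratio in TA was lower than in WT (log2 difference -1.08) and than in TD (TD over TA 0.69) without overlap, each at an exact permutation p of 0.0286 (adjusted 0.0429). TD and WT overlapped (-0.39, exact permutation p = 0.0857, adjusted 0.110). In TA, Fasn rose to 14996 ± 1640 CPM from 9580 ± 1827 in WT (log2 fold change 0.65, SE 0.13, adjusted p = 0.00346) while Scd1 fell. In TD, Fasn was at 8040 ± 665 CPM, below WT like Scd1 but without passing the test (log2 fold change -0.25, SE 0.13).

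**Figure D3:**
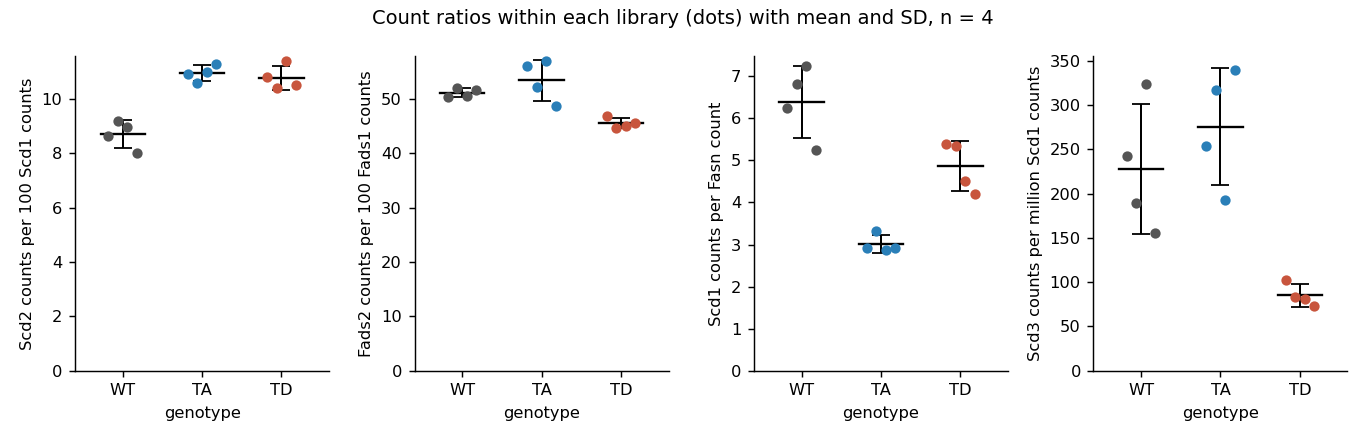
Count ratios within each library (dots) by genotype, with mean (line) and SD (bars), for Scd2 to Scd1, Fads2 to Fads1, Scd1 to Fasn and Scd3 to Scd1. The WT libraries lie apart from both mutants in the Scd2 to Scd1 panel (8.01 to 9.19 against 10.4 to 11.4), and TD lies apart in the Fads2 to Fads1 and Scd3 to Scd1 panels.

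Genes around the desaturation steps were counted in lists, and the counts are to be read against all genes tested, whose shares called higher and lower stood at 6.72% and 4.41% for TA over WT, at 15.1% and 14.2% for TD over WT, and at 7.33% and 9.37% for TD over TA. The median log2 fold change of all genes was -0.01, 0.01 and 0.02, respectively. Of 10 genes that supply the saturated chains, 6 were higher and 1 was lower in TA than in WT (median log2 fold change 0.64, against 6.72% and 4.41% of all genes). TD had 1 higher and 2 lower against WT (-0.04), where 29.2% of all genes were called in either direction, and 6 lower against TA (-0.78, against 9.37%). Acly, which makes cytosolic acetyl-CoA from citrate, rose from 1057 ± 72.3 CPM in WT to 3270 ± 637 in TA (log2 fold change 1.63, SE 0.12, adjusted p = 3.41e-07) and to 1742 ± 132 in TD (0.72, SE 0.12, adjusted p = 0.000469). Slc25a1, the mitochondrial citrate carrier, rose in TA (0.83, SE 0.078, adjusted p = 3.56e-06) and fell in TD (-0.27, SE 0.078, adjusted p = 0.0172). Acacb, the acetyl-CoA carboxylase that makes malonyl-CoA at mitochondria, fell in both TA (-0.61, SE 0.13, adjusted p = 0.00665) and TD (-0.93, SE 0.13, adjusted p = 0.000193).

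Among 11 elongation genes tested, 3 were higher in TA than in WT (median 0.17, against 6.72% of all genes). TD had 2 higher and 3 lower against WT (-0.17, against 15.1% and 14.2%) and 5 lower against TA (-0.25, against 9.37%). Elovl6, which lengthens palmitate to stearate, a substrate of stearoyl-CoA desaturases, averaged 28.5 CPM in WT, 64.5 in TA and 43.2 in TD. It rose in both mutants (TA 1.18, SE 0.19, adjusted p = 0.000816, TD 0.60, SE 0.19, adjusted p = 0.0285). Elovl5, which lengthens chains between the Fads2 and Fads1 steps, fell in TD (-0.36, SE 0.095, adjusted p = 0.00962) and was at -0.11 in TA (SE 0.094, adjusted p = 0.542). Elovl3, a cold-responsive elongase of brown and beige fat, was at 32.9 CPM in WT, 50.4 in TA and 7.51 in TD. It rose by 0.61 in TA (SE 0.19, adjusted p = 0.0428), with libraries that overlapped WT. In TD its log2 fold change was -2.13 (SE 0.21, adjusted p = 2.92e-05).

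The electron donors fell in TD only in part. Of 5 tested, TD had 3 lower against WT (median -0.32, against 14.2% of all genes) and 2 lower against TA (-0.19, against 9.37%). In TA against WT, 0 were called by edgeR and 0 by DESeq2, and 1 had an unadjusted p under 0.05 (median -0.08). Cyb5a, the microsomal cytochrome b5, fell from 551 ± 41.3 CPM in WT to 390 ± 40.6 in TD (-0.50, SE 0.1, adjusted p = 0.00207), and Cyb5r3, its reductase, from 296 ± 12.8 to 237 ± 3.66 CPM (-0.32, SE 0.072, adjusted p = 0.00394).

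Among 22 sensors and transcription factors that act on desaturase genes, 4 were higher in TA than in WT (median 0.05, against 6.72% of all genes) and 8 were lower in TD than in TA (-0.09, against 9.37%). With 1 higher and 4 lower in TD against WT (-0.01), the share called was below the 29.2% of all genes. Srebf1, which encodes SREBP-1, rose in TA (0.32, SE 0.084, adjusted p = 0.0216), with libraries that overlapped WT. Thrsp, a lipogenic protein induced by thyroid hormone, rose more in TA (0.90, SE 0.085, adjusted p = 3.77e-06). In TD these were at -0.05 (SE 0.084, adjusted p = 0.668) and -0.02 (SE 0.084, adjusted p = 0.906). Pparg, the mutated gene, fell from 354 ± 19.9 CPM in WT to 237 ± 24.2 in TD (-0.58, SE 0.095, adjusted p = 0.000429) and was at 374 ± 46.1 in TA (0.08, SE 0.094, adjusted p = 0.670). Ppara, the related receptor of fatty acid oxidation, also fell in TD (-0.71, SE 0.18, adjusted p = 0.00678), and Mbtps1, the protease that cleaves SREBP, rose (0.19, SE 0.063, adjusted p = 0.0360). Nr1h3, which encodes LXRα, was at 0.03 in TA and -0.01 in TD (SE 0.093 for both, adjusted p = 0.877 and 0.964). Mlxipl, which encodes ChREBP, was at -0.12 and -0.25 (SE 0.1 for both, adjusted p = 0.527 and 0.0741).

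**Figure D4:**
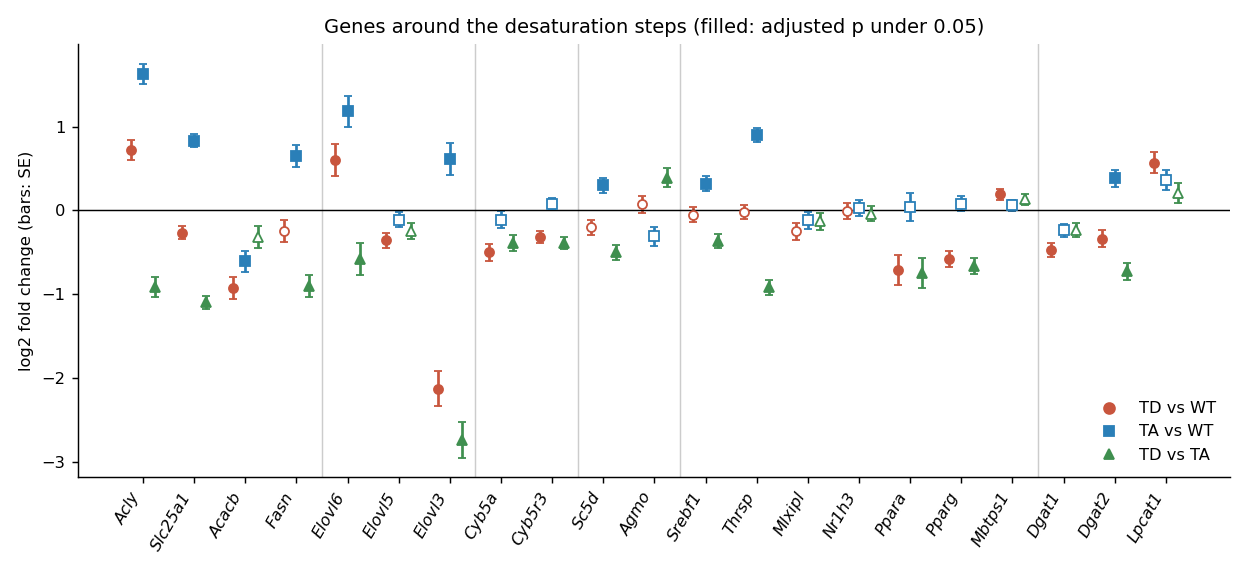
Log2 fold change (y axis, bars give the SE) of the named genes of acyl supply, elongation, electron donors, other desaturases, regulators and lipid placement (groups from left to right, x axis), with the symbols of the desaturase plot. In TA over WT the squares of Acly, Slc25a1, Fasn and Elovl6 are filled and above 0, and the circles of Cyb5a, Cyb5r3 and Elovl3 in TD over WT are filled and below 0.

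Of 11 enzymes that place the chains in lipids, 1 was higher in TA than in WT (median 0.13, against 11.1% of all genes called in either direction). TD had 1 higher and 3 lower against WT (0.03, against 29.2%) and 2 lower against TA (-0.01, against 16.7%), so the shares called were near those of all genes. Dgat2, a triglyceride synthase that works with newly made chains, rose in TA (0.38, SE 0.1, adjusted p = 0.0247), with libraries that overlapped WT. It fell in TD (-0.34, SE 0.1, adjusted p = 0.0208). Dgat1 also fell in TD (-0.47, SE 0.083, adjusted p = 0.000675), where Lpcat1, a phosphatidylcholine remodelling enzyme, rose (0.57, SE 0.12, adjusted p = 0.00214). Desaturases and hydroxylases of other substrates gave 1 of 5 higher in TA than in WT (median 0.23, against 6.72% of all genes), and TD against TA gave 1 higher and 3 lower (-0.32, against 7.33% and 9.37%). In TD against WT, 0 of the 5 were called by edgeR and 0 by DESeq2, and 1 had an unadjusted p under 0.05 (median -0.09). Sc5d, a desaturase of cholesterol synthesis, rose in TA (0.30, SE 0.089, adjusted p = 0.0423), with libraries that overlapped WT. Agmo, which cleaves ether lipids, was higher in TD than in TA (0.39, SE 0.11, adjusted p = 0.0203).

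Marker levels of several cell types also differed between the genotypes. The counts called are to be read against the shares of all genes tested. These were 15.1% higher and 14.2% lower in TD against WT, and 6.72% and 4.41% in TA against WT. In TD against TA, 7.33% of all genes were called higher. Of 12 adipocyte markers, TD had 10 lower against WT (median -0.46), while TA had 2 higher and 1 lower (0.10). Their summed level ran from 23910 to 27164 CPM in WT, 22325 to 29512 in TA and 16587 to 18981 in TD. Adipoq, which defines the adipocyte, averaged 729 ± 71.1 CPM in WT, 803 ± 65.9 in TA and 600 ± 40.0 in TD and was thus detected in each genotype. Of 9 fibroblast and preadipocyte markers tested, 8 were higher in TD and 6 in TA than in WT, with sums of 10206 to 13552 CPM in WT, 11483 to 20585 in TA and 17729 to 25909 in TD, and Dlk1 had at most 3 counts in each library. Skeletal muscle markers were higher too, 10 of 10 in TD and 8 of 10 in TA, but their sums were small (1.54 to 8.66 CPM in WT, 16.1 to 77.1 in TA and 15.3 to 290 in TD). Endothelial markers summed to 25.3 to 53.9 CPM in WT, 46.9 to 83.0 in TA and 95.2 to 120 in TD, with 5 of 6 higher in TD and 3 of 6 in TA. Macrophage markers (270 to 791 CPM in WT, 132 to 577 in TA, 610 to 848 in TD) had 3 of 8 higher in TD than in TA. Against WT, 0 of 8 were called in either mutant by edgeR or by DESeq2, with 2 in TD and 3 in TA at an unadjusted p under 0.05. Glial markers, looked at because Scd2 is abundant in brain and nerve, had 2 of 6 higher in TD, and in TA 0 of 6 were called by edgeR, by DESeq2 or at an unadjusted p under 0.05. They summed to 238 to 322, 291 to 324 and 339 to 358 CPM. Values of the desaturases beside the adipocyte markers follow, and the part of the other cell types in the desaturase results was not tested.

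The desaturases were therefore also set beside the adipocyte markers of the same library, as CPM per 1000 CPM of their sum, a measure chosen after the values were seen and given with no test. This scale shifts with the marker sum, which was lower in TD and includes Dgat2, called in both mutants. Whether the markers followed the mutated receptor or the number of adipocytes was not tested. On this scale Scd1 ran from 2170 to 2537 in WT, 1462 to 1980 in TA and 2076 to 2213 in TD, so TD overlapped WT and TA did not. Scd3 stayed apart in TD (0.163 to 0.224, against 0.374 to 0.823 in WT and 0.334 to 0.554 in TA), as did Fads6 on the upper side (1.11 to 1.46, against 0.479 to 0.744 and 0.365 to 0.803). Scd2 overlapped between TD (216 to 244) and WT (188 to 228). Fads1 was highest in TA (13.6 to 15.4), but TD (12.6 to 14.5) was now above WT (9.87 to 11.3), where plain CPM had overlapped. Fads2 kept its place in TA (7.51 to 8.46, against 5.10 to 5.73 in WT), and TD (5.64 to 6.52) overlapped WT. For Fads3 both mutants were above WT (8.67 to 9.19 in TA, 9.19 to 10.1 in TD and 6.78 to 8.12 in WT). Against WT, the lower Scd3 and higher Fads6 of TD and the lower Scd1 and higher Fads1, Fads2 and Fads3 of TA were seen on both scales. The lower Scd1 of TD was not separated from WT on the adipocyte scale (means 2153 in TD and 2351 in WT), and for Scd2 (232 and 205) and Fads2 (6.19 and 5.29) the means turned, with TD above WT. The means of Fads1 (13.6 in TD and 10.3 in WT) and Fads3 (9.64 and 7.57) turned as well, with TD above WT without overlap. In plain CPM, Fads3 in TD had been below WT, also without overlap. Between the mutants, Scd3 and Fads2 stayed lower and Fads6 higher in TD without overlap, but Fads1 overlapped (means 13.6 in TD and 14.6 in TA), and Fads3 turned, with a mean of 9.64 in TD and 8.97 in TA. Scd1 (means 2153 in TD and 1731 in TA) and Scd2 (232 and 189) turned too, with TD above TA without overlap.

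**Figure D5:**
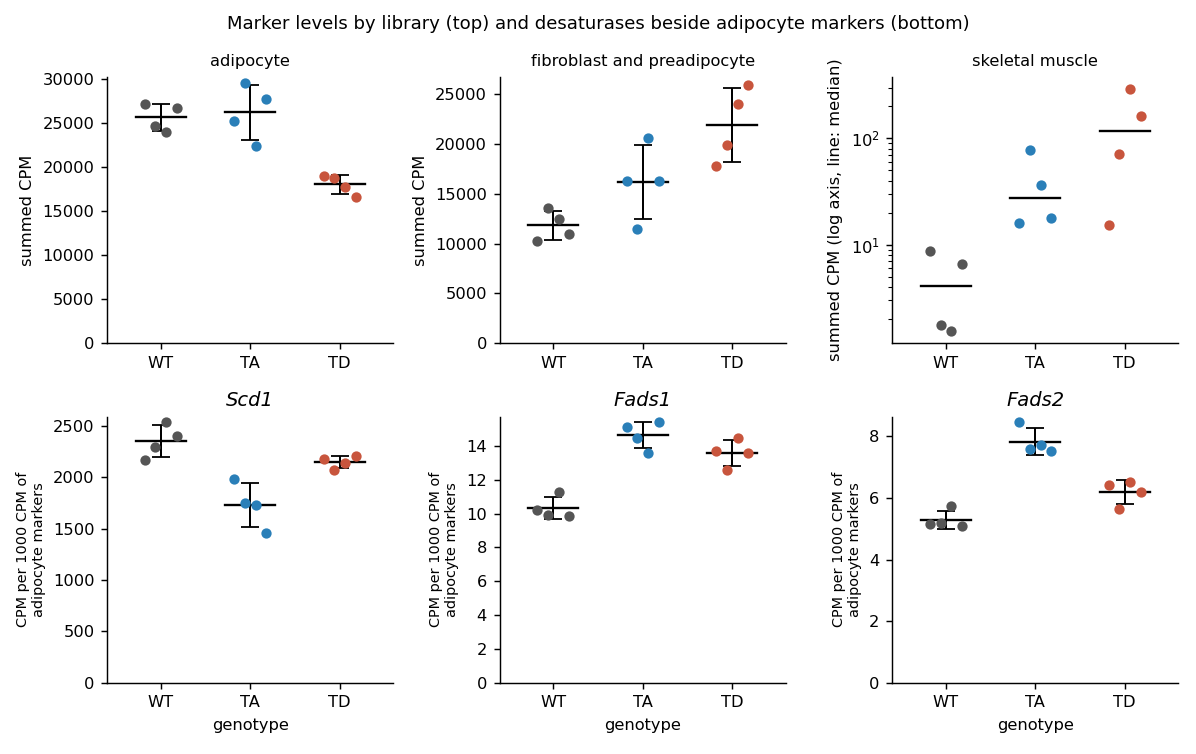
Summed CPM of adipocyte, fibroblast and preadipocyte, and skeletal muscle markers by library (top, the muscle panel on a log axis with a line for the median) and CPM of Scd1, Fads1 and Fads2 per 1000 CPM of adipocyte markers (bottom), with mean and SD otherwise. TD has the lowest adipocyte sums (16587 to 18981), and the bottom panels place TA apart from WT for all 3 genes.

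Across the 12 libraries the members were compared by the correlation of log2 CPM, given as a description since the libraries share genotypes. Fads1, Fads2 and Fads3 varied together (Pearson's r from 0.94 to 0.97), and Scd2 went with Scd1 (0.87) and Scd3 (0.88). The Scd genes differed in their relation to the Fads genes. Scd1 was at 0.07 with Fads1, 0.20 with Fads2 and 0.18 with Fads3, Scd2 at 0.46, 0.56 and 0.53, and Scd3 at 0.62, 0.71 and 0.72, the last near its 0.75 with Scd1. Fads6 ran opposite to Scd1 (-0.75), Scd2 (-0.82) and Scd3 (-0.85), and also to Fads1 (-0.60), Fads2 (-0.67) and Fads3 (-0.64). With genes below a mean of 5 CPM set aside, those most like Scd1 were Hsdl2 (0.972), Wapl (0.966) and Car5b (0.963), and those most like Scd2 were Prkaa2 (0.956), Ak3 (0.947) and Tob1 (0.946). For Scd3 they were Zeb2os (0.966), Decr2 (0.963) and Gsta3 (0.959). Fads1 was followed by Clmn (0.979), Tnfaip8 (0.973) and Fads2 (0.967), Fads2 by Ephx2 (0.987), Slc25a1 (0.982) and Myh10 (0.980), and Fads3 by Tnfaip8 (0.960), Usp2 (0.958) and Porcn (0.958). Most like Fads6 were Gabre (0.966), Sphkap (0.964) and Inhbb (0.964), while Scd4, with its few counts, reached only 0.813 (R3hdm2), 0.797 (Abca3) and 0.791 (Anxa11).

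Promoter windows, from 250 bases before to 50 after the RefSeq start, were at hand for 5 members, Scd3, Scd4, Fads2, Fads3 and Fads6. They were searched on both strands for the CCAAT box (CCAAT, found in 37.4% of 32851 RefSeq windows), the E-box CACGTG (7.15%), the sterol regulatory element TCACNCCAC (1.24%) and the nuclear receptor motif AGGTCA (16.3%). The windows of Fads6, the member that rose in TD, Fads3, which rose in TA, and Scd3, which fell most in TD, are shown, with matches in capitals.
Fads6 promoter, GRCm38.p6 chr11:115297513-115297812, minus strand: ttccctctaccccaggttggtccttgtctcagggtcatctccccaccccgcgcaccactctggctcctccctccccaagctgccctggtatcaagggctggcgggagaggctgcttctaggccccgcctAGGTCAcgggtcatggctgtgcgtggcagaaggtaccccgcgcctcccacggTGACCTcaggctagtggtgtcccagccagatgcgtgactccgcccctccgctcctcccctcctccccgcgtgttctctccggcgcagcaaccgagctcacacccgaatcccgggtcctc
Fads3 promoter, GRCm38.p6 chr19:10041298-10041597, plus strand: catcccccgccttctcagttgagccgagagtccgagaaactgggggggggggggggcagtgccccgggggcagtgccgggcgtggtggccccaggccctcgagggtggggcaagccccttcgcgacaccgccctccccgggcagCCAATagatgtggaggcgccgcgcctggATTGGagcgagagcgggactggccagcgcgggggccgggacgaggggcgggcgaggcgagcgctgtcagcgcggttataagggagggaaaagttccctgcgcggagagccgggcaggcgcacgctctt
Scd3 promoter, GRCm38.p6 chr19:44203038-44203337, plus strand: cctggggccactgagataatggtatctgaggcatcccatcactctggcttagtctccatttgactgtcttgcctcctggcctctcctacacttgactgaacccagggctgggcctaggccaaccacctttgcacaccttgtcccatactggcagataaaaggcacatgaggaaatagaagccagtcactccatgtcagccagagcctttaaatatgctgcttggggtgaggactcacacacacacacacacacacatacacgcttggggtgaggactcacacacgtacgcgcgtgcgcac
Fads6 held AGGTCA 121 bases before the start and again, on the opposite strand, 69 bases before it. Fads3 held CCAAT at 106 bases before the start and, on the opposite strand, at 78 bases. None of the 4 motifs occurred in the windows of Scd3, Scd4 or Fads2, which says only that these letters are absent there. The RefSeq start lay 234 bases downstream of the GENCODE gene start in Scd4, 243 in Fads2 and 101 in Fads6. In Scd3 and Fads3 the starts were 19 and 21 bases apart. Most bases searched before the start of Scd4 and Fads2 thus lay within the GENCODE gene, as did the Fads6 match at 69 bases. A match is a description of the sequence and not evidence of binding.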

How the data were processed

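RNA of adipocytes was measured in 12 libraries, grouped by the genotype in their labels. The authors sequenced on a NovaSeq instrument and, per the labels' processing notes, used bcl2fastq 2.17.1.14, cutadapt 1.9.1, HISAT2 2.0.1 and HTSeq 0.6.1 on GRCm38, and they deposited raw read counts per gene without normalization. The strand setting is not given in the sources used here, and the dexamethasone dose is left out because the labels and methods give it in different units. The table and the single-library files held the same counts. Of the identifiers, 99.8% were found in GENCODE M21, which gave positions, lengths and coding sequences.

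Genes were kept with edgeR's filterByExpr (minimum count 10, minimum total 15) in R 4.3.3. TMM factors were 0.957 to 1.04, and edgeR 4.0.16 (with limma 3.58.1) fitted a quasi-likelihood model to all 12 libraries, with Benjamini-Hochberg adjustment over the 15117 genes tested and a threshold of 0.05. The methods of the study name DESeq2, which was run as an alternative (1.42.0). SEs were derived from the F statistic, with a prior count of 2 for log2 CPM. Counts of replicates differed beyond sampling noise in 18 of 18 pairs (chi-square per degree of freedom from 4.95 to 38.7). Count ratios were tested by exact permutation in SciPy 1.17.1. The steps were tested on simulated data. The members, the gene lists and the marker lists were chosen with earlier results of these data known. Named genes are the 8 members, the largest called rise and fall of each list in each comparison, 9 fixed regulators and enzymes, and the 3 genes most like each member. Alternatives covered scaling, filter, test, samples in the fit, replicate block, fold threshold and each library left out. Promoters came from RefSeq (GRCm38.p6). Proteins were not used here.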

Additional observations from a re-analysis of the deposited data

Results flagged for a closer look

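In 1 of 33 sets of 4 libraries examined for a library far from its group, the highest value stood apart. TA replicate 2 had 3.32 Scd1 counts per Fasn count, and its gap to the next TA library was 0.869 of the range of the 4. About 1 in 20 such sets would show this by chance. The 4 TA libraries still lay between 2.86 and 3.32, below the lowest TD library (4.20) and the lowest WT library (5.25). Without TA replicate 2 the log2 difference of TA from WT was -1.13.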

How the results depend on the processing

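Of the fold changes of the desaturases under the settings tried, 369 kept direction and side of the threshold, 20 lost their call, 2 gained it and 12 changed sign. Requiring a log2 fold change above 1 in size left 795, 424 and 362 genes and 1, 0 and 1 desaturases called in TD against WT, TA against WT and TD against TA. With only the genotypes compared in the fit, 2 desaturases were called in TA against WT. Leaving out single libraries gave 3121 to 4413, 1160 to 1939 and 1422 to 3526 genes and 3 to 5, 2 to 4 and 4 to 6 desaturases. Library totals alone moved the split of calls to 2840 higher and 1558 lower in TD against WT (2276 and 2142 with TMM) and to 1802 and 982 in TD against TA (1108 and 1416), and totals without Scd1 and mitochondrial genes to 811 and 1132 in TA against WT (1016 and 667) and 1656 and 1036 in TD against TA. The calls that were lost are given with their genes, and Fads2 in TD also lost its call with library totals (adjusted p = 0.0505) and without WT replicate 1 (0.0561), and Fads6 against TA without TD replicate 4 (0.0542). Directions turned only where the test was far from the threshold, in TA against WT. Scd3 turned to 0.10 without WT replicate 3 and to 0.06 without TA replicate 3 (range -0.28 to 0.10 over single libraries). Fads6 turned to -0.03 with totals without Scd1 and mitochondrial genes and to between -0.06 and -0.03 without WT replicate 1 (-0.03) or 4 (-0.04) or TA replicate 3 (-0.06) or 4 (-0.03), with 0.15 as the highest. Scd4 turned to -0.03 with the same totals, to -0.07 with the replicate block, and to -0.04, -0.60 and -0.03 without WT replicate 1, TA replicate 1 and TA replicate 4. With 3 against 4 libraries the exact permutation test cannot go below 0.0571, so the ratios keep only their size, which ran from 0.27 to 0.34, 0.30 to 0.36 and -0.05 to -0.01 for Scd2 to Scd1 (TD against WT, TA against WT, TD against TA), -0.18 to -0.16, 0.03 to 0.10 and -0.27 to -0.20 for Fads2 to Fads1, and -0.48 to -0.33, -1.17 to -1.02 and 0.64 to 0.75 for Scd1 to Fasn. Libraries with the same number did not deviate together (correlations from -0.237 to 0.196, against -0.257 to 0.264 for different numbers). Whether equal numbers share a preparation is not given in the labels, and these correlations cannot decide it. With the replicate block 4246, 1560 and 2488 genes and 5, 3 and 5 desaturases were called, and Scd1 in TA was at -0.42 (adjusted p = 0.0531). Scd4, at 2 to 16 counts, is limited by depth and gave no value with at least 10 counts in every library, nor against WT with only the genotypes compared. The causes of these shifts were not tested.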
